A study of Mus musculus with 27 samples.

Results

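The CHD genes Chd1 to Chd9 encode chromatin remodellers that move or evict nucleosomes with the energy of ATP. They were taken by gene symbol from the 2 expression tables of the series, which held all 9 of them among 20156 RefSeq genes, and their expression and the histone marks within 1000 bp of their start sites were followed through reprogramming. Expression was measured by RNA-seq in FPKM, fragments scaled to transcript length and library size, in 6 libraries, and the marks by MNase ChIP-seq of histone H3, H3K4me3, H3K27me3 and H3K9me3 in 21 libraries.

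The groups were mouse embryonic fibroblasts (MEFs), pre-iPSCs, which are cells at an intermediate stage of reprogramming, and induced pluripotent stem cells (iPSCs). MEFs came from embryos of day 13.5 that carried 1 copy of an Oct4-GFP transgene and of a Rosa26 allele, with CBA/CaJ and C57BL/6J as the labelled background and 129Sv/Jae mothers per the methods, and were grown for at most 3 passages. Pre-iPSCs and iPSCs were made from such MEFs with the 4 Yamanaka factors (Oct4, Sox2, Klf4 and Myc) delivered by retrovirus, were stable clones, and were grown for 6 passages in medium with serum and leukaemia inhibitory factor on a layer of inactivated MEFs. There were 2 libraries of each cell type for RNA, H3, H3K4me3 and H3K27me3 and 1 for H3K9me3, and replicate 2 stands for the library with "rep" in its title. Which clone a library came from was not given in the sources used here, so p-values measure the spread between these libraries, which may be partly technical. MEF chromatin was digested with another amount of MNase and for another time than that of pre-iPSCs and iPSCs, so at the promoters cell type and digestion cannot be told apart in a comparison with MEFs.

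The nucleosome calls held 12007350 to 13146349 reads in each H3K4me3 library, 13224775 to 15222040 for H3K27me3, 12222861 to 12942154 for H3K9me3 and 67362868 to 108211816 for H3. The H3 libraries of pre-iPSC replicate 1 and iPSC replicate 1 stood apart, with a median promoter level of 0.55 and 0.408 RPKM (reads scaled to window length and unique reads of the library) against 0.204 to 0.238 in the other 4. Of 10 fibroblast markers, all were at 1 FPKM or more in MEFs and in iPSCs, and 10 and 9 in pre-iPSCs. Their summed level was 8250 and 16400 FPKM in MEFs, then 1280 and 1270 in pre-iPSCs, then 420 and 608 in iPSCs. From pre-iPSCs to iPSCs all of them but Col3a1 fell in replicate 1. In replicate 2 only S100a4 (431 to 87.2 FPKM) and Vim (754 to 308) fell, and the others rose, as Col1a1 did from 27.7 to 70.6. All 10 pluripotency markers reached 1 FPKM in iPSCs, 5 of 10 in pre-iPSCs, where Nanog was at 0.519 and 0.0 FPKM, and 0 of 10 in MEFs. The germ cell list summed to 109 and 118 FPKM in iPSCs and at most 0.26 FPKM in every other library, and the 7 neural markers in the tables summed to 78.3 and 144 FPKM in MEFs, then 394 and 290 in pre-iPSCs, then 134 and 97.2 in iPSCs. Stmn2 made up most of the neural sum in pre-iPSCs, at 301 and 263 FPKM. From MEFs to pre-iPSCs Nes fell, Tubb3 went both ways, and Sox1 and Pax6 rose to at most 7.10 FPKM. The blood list summed to 6.06 to 48.1 FPKM over the 6 libraries with haemoglobin Hbb-b1 at 0 in all of them, and the endothelial list to 0.152 to 2.37 FPKM outside iPSCs and 15.9 and 12.8 in iPSCs, where Pecam1 made up nearly all of it. In bulk samples fewer cells of a type and less RNA per cell cannot be told apart.

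CHD proteins share a pair of chromodomains, which bind histone tails, and an ATPase motor of the Snf2 type, and fall into 3 subfamilies by their other domains. Chd1 and Chd2 work in transcribed chromatin, and Chd1 is known to bind H3K4me3. Chd3, Chd4 and Chd5 are the alternative motors of NuRD, a complex that joins remodelling to histone deacetylation and represses genes. Chd6 to Chd9 are large proteins, of which Chd7 acts at enhancers and is mutated in CHARGE syndrome, and Chd8 restrains targets of beta-catenin and is mutated in forms of autism.

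On mm9 the tables start Chd1 on chromosome 17 at 15841931, Chd4 on chromosome 6 at 125046181, Chd5 on chromosome 4 at 151712760 and Chd9 on chromosome 8 at 93352734, all on the + strand. On the - strand lie Chd2, on chromosome 7 at 80686632, Chd3, on chromosome 11 at 69182893, Chd6, on chromosome 2 at 160934792, and Chd8, on chromosome 14 at 52857247. The sequences upstream of the members' start sites differed widely in CpG, the dinucleotide that marks island promoters and the usual ground for H3K4me3. The 200 bases before the most upstream annotated start near the table's start are shown for Chd3, whose expression changed, and for both starts of Chd8, where the mark lay elsewhere than the table's start. They are from the mm9 genome, read 5′ to 3′ on the gene's strand, with each CpG in capitals.
Chd3, chr11:69182929-69183128, - strand: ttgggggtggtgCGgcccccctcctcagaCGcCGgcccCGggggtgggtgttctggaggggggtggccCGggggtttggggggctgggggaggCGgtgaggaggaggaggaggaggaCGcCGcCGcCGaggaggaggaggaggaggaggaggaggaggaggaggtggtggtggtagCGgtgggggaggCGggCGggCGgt
Chd8 at the table's start, chr14:52857467-52857666, - strand: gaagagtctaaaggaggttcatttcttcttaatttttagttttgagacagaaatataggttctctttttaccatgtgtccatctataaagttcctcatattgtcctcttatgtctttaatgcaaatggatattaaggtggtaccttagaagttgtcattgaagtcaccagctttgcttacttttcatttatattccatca
Chd8 at the RefSeq start, chr14:52877436-52877635, - strand: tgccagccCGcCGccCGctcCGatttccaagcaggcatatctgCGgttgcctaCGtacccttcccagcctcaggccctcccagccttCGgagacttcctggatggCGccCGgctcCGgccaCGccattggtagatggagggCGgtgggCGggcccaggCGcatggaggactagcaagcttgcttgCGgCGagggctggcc
Of the 8 members scored, Chd1 had 35 CpG in these 200 bases. Chd3, Chd4, Chd5, Chd6 and Chd9 had 12 to 16, above the median of 9 over all 20156 start sites, and Chd2 and the table's start of Chd8 had 0. All start sites were scored at the table's own start, which for Chd3, Chd4, Chd6 and Chd8 differs from the more upstream start used here. For Chd8 the start used was 52857466, upstream of the table's 52857247. The sequence and the counts in 200 bases named after the table's start of Chd8 are those before 52857466. In the 2001 bases centred on the table's start Chd1 had 216 CpG, Chd2 32 and Chd8 14, where the median of all start sites was 66. RefSeq starts were matched for Chd4, Chd5, Chd6, Chd8 and Chd9 only. The start of Chd2 was not checked in this way, so its low CpG counts may not be those of the promoter in use. The letters GGGCGG, a GC box that itself holds a CpG, occurred on either strand upstream of 5 of the 8 members and of 43.9% of all start sites. The letters CCAAT were upstream of 1 member and TATAAA of 1, the table's start of Chd8, against 31.2% and 9.67% of all start sites, and CCGGAAG was upstream of 0 members against 8.97%. These counts leave out the RefSeq start of Chd8, which had GGGCGG and CCAAT upstream and no TATAAA.

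Across reprogramming Chd3 fell and Chd7 rose, and the other 6 members tested did not pass the threshold in any comparison. The test was limma on log2(FPKM + 1) over the 12401 genes that averaged 0.5 FPKM or more, and a call needed both an adjusted p under 0.05 and a 2-fold difference, 1 on the log2 scale. The change from MEFs to pre-iPSCs is called the first step, that from pre-iPSCs to iPSCs the second step, and that from MEFs to iPSCs the whole course. Of the 9 members 8 passed this filter and Chd5 did not. In the first step 1 of 8 members was called higher and 1 lower, beside 7.39% and 9.0% of all tested genes. Over the whole course it was again 1 higher and 1 lower, beside 10.3% and 15.5%. In the second step limma called 0 of 8, beside 3.91% of all genes higher and 4.71% lower, and 3, 2 and 2 of 8 had an unadjusted p under 0.05 in the first step, the second and the whole course, beside 31.4%, 21.6% and 39.3% of all tested genes. The median difference of the 8 members was 0.73 in the first step, -0.22 in the second and 0.42 over the whole course, beside -0.04, -0.09 and -0.14 over all tested genes. All 9 members were lower in MEF replicate 2 than in MEF replicate 1, with summed levels of 95.6 and 163.0 FPKM. For the 6 members not called, the ratio of FPKM of iPSCs to MEFs was 0.5512 to 1.312 in the first table. In the second table it was 1.504 to 3.218. The medians were not computed without MEF replicate 2. Without it the whole-course differences of Chd2, Chd4, Chd6 and Chd8 were 0.08, 0.04, 0.48 and 0.18. With all libraries they were 0.51, 0.26, 0.71 and 0.31. That of Chd1 went from 0.36 to -0.69.

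**Figure D1:**
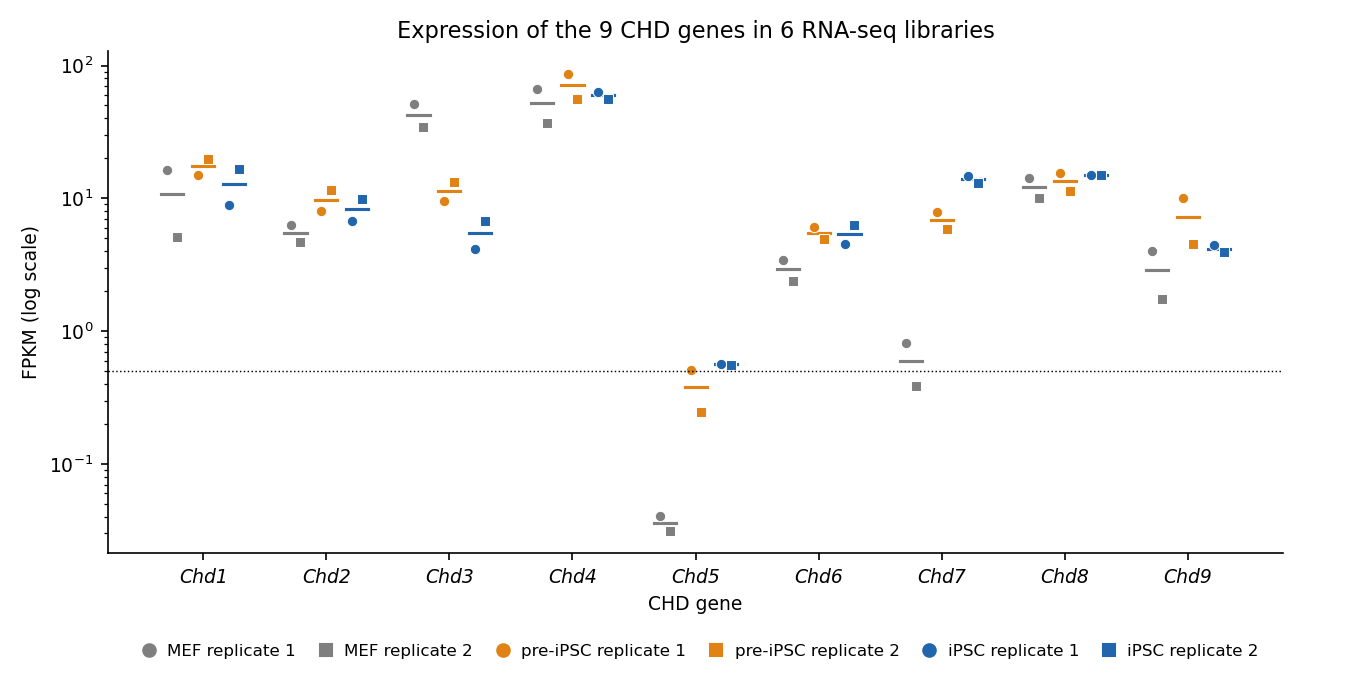
FPKM of the 9 CHD genes on a log axis in each of the 6 RNA-seq libraries, with circles for replicate 1, squares for replicate 2, a short line at the mean of each cell type and a dotted line at 0.5 FPKM. Chd4 lies highest in every library, Chd3 descends from MEFs to iPSCs, Chd7 climbs from below 1 FPKM to 13.0 and 14.8, and Chd5 lies at or below 0.569 FPKM throughout.

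Chd1, which spaces nucleosomes in transcribed genes, was at 16.3 and 5.15 FPKM in MEFs, then 14.9 and 19.9 in pre-iPSCs, then 8.96 and 16.6 in iPSCs. The MEF libraries lay further apart than the cell types did, and the groups overlapped in all 3 comparisons. Its difference was 0.82 (SE 0.57) for pre-iPSCs against MEFs and 0.36 (SE 0.57) for iPSCs against MEFs, with limma adjusted p = 0.38 and 0.68. Single libraries decided the size and sign of these differences. Without MEF replicate 1 they were 1.87 and 1.41 and both passed the threshold. Without MEF replicate 2 they were -0.22 and -0.69. The second was 1.04 without iPSC replicate 1 and -0.32 without iPSC replicate 2. Chd2, its closest relative, was at 6.34 and 4.69 FPKM in MEFs, then 8.10 and 11.5 in pre-iPSCs, then 6.72 and 9.93 in iPSCs. Every pre-iPSC and iPSC library was above both MEF libraries, but the differences of 0.72 (95% interval -0.20 to 1.65) and 0.51 (-0.42 to 1.43) from MEFs did not pass the threshold (limma adjusted p = 0.26 and 0.38). They were 1.15 and 0.93 without MEF replicate 1 and 0.30 and 0.08 without MEF replicate 2, and the second was 0.28 without iPSC replicate 2. Of the 8 partners of Chd1 in transcribed chromatin that the tables held, limma called 1 higher over the whole course, beside 10.3% of all tested genes, and 0 in each single step. It was Supt16h, a subunit of the histone chaperone FACT, at 34.2 and 18.0 FPKM in MEFs and 63.5 and 53.8 in iPSCs (difference 1.2, limma adjusted p = 0.043). The median difference of these 8 for iPSCs against MEFs was 0.18, beside -0.14 over all tested genes.

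Chd3, a motor of NuRD, was at 51.0 and 34.2 FPKM in MEFs, then 9.51 and 13.3 in pre-iPSCs, then 4.12 and 6.77 in iPSCs. The 3 cell types did not overlap, and each pair of libraries lay below the one before. The difference was -1.81 (95% interval -2.76 to -0.85, limma adjusted p = 0.024) for pre-iPSCs against MEFs and -2.76 (-3.72 to -1.81, limma adjusted p = 0.0039) for iPSCs against MEFs, which is 3.50-fold and 6.79-fold lower on the scale of FPKM + 1. The step from pre-iPSCs to iPSCs was -0.96 and was not called (limma adjusted p = 0.23). The call of the first step rested on single libraries, since it was -1.27 without MEF replicate 1, -1.60 without pre-iPSC replicate 1 and -2.02 without pre-iPSC replicate 2, with limma adjusted p = 0.065, 0.21 and 0.097. The difference of iPSCs from MEFs stayed called without each library in turn, at -2.22 to -3.30, but with no filter on low values neither difference from MEFs was called (limma adjusted p = 0.17 and 0.071). Chd3 fell as the summed fibroblast markers did, which were 5.09% and 3.71% of their MEF level in iPSCs. In replicate 2 the fall of that sum from pre-iPSCs to iPSCs came from S100a4 and Vim, while the other markers rose. The part of fibroblast or feeder RNA in the level of Chd3 was not tested.

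Chd4, the main NuRD motor of stem cells, was the most expressed member in all 6 libraries and made up 38.7% to 54.5% of the summed FPKM of the family. It was at 66.9 and 37.0 FPKM in MEFs, then 86.9 and 55.8 in pre-iPSCs, then 63.4 and 56.0 in iPSCs. The cell types overlapped, and the difference of iPSCs from MEFs was 0.26 (95% interval -0.59 to 1.10, limma adjusted p = 0.64). Within each library Chd3 stood at 76.3% and 92.7% of the FPKM of Chd4 in MEFs, 10.9% and 23.8% in pre-iPSCs, then 6.51% and 12.1% in iPSCs. This ratio needs no scaling between libraries, and the MEF libraries lay above the other 4.

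**Figure D2:**
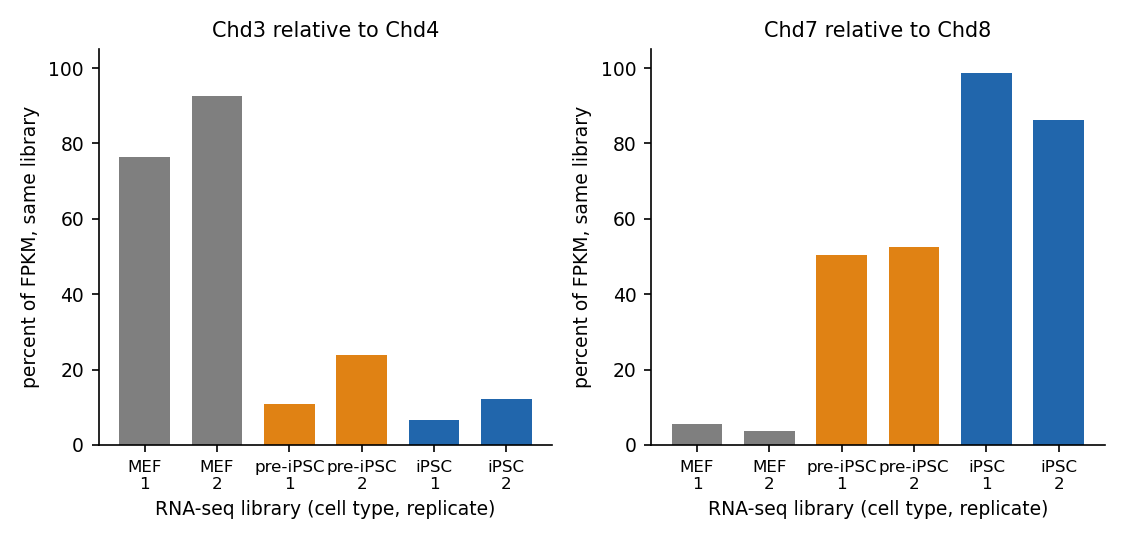
FPKM of Chd3 as a percent of that of Chd4 (left) and of Chd7 as a percent of that of Chd8 (right) within each of the 6 RNA-seq libraries, 1 bar a library. Chd3 goes from 76.3% and 92.7% of Chd4 in MEFs to 6.51% and 12.1% in iPSCs, while Chd7 goes from 5.68% and 3.83% of Chd8 to 98.6% and 86.1%.

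Chd5, the neural and testis member of this subfamily, was at 0.0407 and 0.0316 FPKM in MEFs, then 0.511 and 0.246 in pre-iPSCs, then 0.569 and 0.555 in iPSCs. All pre-iPSC and iPSC libraries were above both MEF libraries, and over the 6 libraries its level lay between the 31.7th and 42.0th percentile of the genes in a library. It was tested only with no filter on low values, where the difference of iPSCs from MEFs was 0.59 on the scale of log2(FPKM + 1) (limma adjusted p = 0.08). A call needed a difference of at least 1, which levels of 0.569 FPKM or less cannot reach on this scale, so its lack carries no information. The ratio of FPKM of iPSCs to MEFs was 14.0 in the first table and 17.6 in the second. Of the 15 subunits of NuRD and of ChAHP, a complex of Chd4 with Adnp and HP1, all were tested. Over the whole course 3 were called higher and 1 lower, beside the 10.3% and 15.5% of all genes, and limma called 0 in each single step. The third gene called higher, Hdac1, a deacetylase of NuRD, is named here after its values were seen (difference 1.16, limma adjusted p = 0.046). Mbd2, the subunit that binds methylated DNA, was at 46.7 and 53.4 FPKM in MEFs, then 23.3 and 24.1 in pre-iPSCs, then 8.86 and 10.3 in iPSCs (difference of iPSCs from MEFs -2.27, SE 0.33, limma adjusted p = 0.0037). Its cell types were in the same order as those of Chd3 and did not overlap. Mta3, a scaffold subunit, rose from 22.9 and 29.7 FPKM in MEFs to 74.1 and 55.0 in iPSCs (1.26, limma adjusted p = 0.042), and Cbx1, the HP1 protein beta, from 30.2 and 27.8 to 61.2 and 74.3 (1.19, limma adjusted p = 0.044). The median difference of the 15 was -0.04, beside -0.14 over all tested genes.

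Chd7 was at 0.808 and 0.384 FPKM in MEFs, then 7.83 and 5.91 in pre-iPSCs, then 14.8 and 13.0 in iPSCs. The cell types did not overlap, and each pair of libraries lay above the one before. The difference was 2.30 (95% interval 1.46 to 3.15, limma adjusted p = 0.0066) for pre-iPSCs against MEFs and 3.23 (2.39 to 4.08, limma adjusted p = 0.0016) for iPSCs against MEFs, which is 4.94-fold and 9.41-fold on the scale of FPKM + 1. That scale understates the change of a low gene, and the ratio of FPKM of iPSCs to MEFs was 18.3 in the first table and 33.9 in the second. The step from pre-iPSCs to iPSCs was 0.93 and was not called (limma adjusted p = 0.19). Both differences from MEFs stayed called without each library in turn, at 2.24 to 2.36 and 3.14 to 3.33. With no filter on low values the first lost its call and the second kept it (limma adjusted p = 0.09 and 0.037). By mean FPKM Chd7 ranked 8th of the 9 members in MEFs and 3rd in iPSCs, where its libraries overlapped those of Chd1, the next in order. Within a library it went from 5.68% and 3.83% of the FPKM of Chd8 in MEFs to 50.4% and 52.5% in pre-iPSCs, then 98.6% and 86.1% in iPSCs. The summed pluripotency markers were at 0.147 and 1.03 FPKM in MEFs, then 904 and 3700 in pre-iPSCs, then 2420 and 2350 in iPSCs, and their part in the level of Chd7 was not tested. In pre-iPSCs this sum was mostly Pou5f1 (Oct4), at 378 and 3184 FPKM, Sox2, at 272.5 and 171.2, and Tdgf1, at 228 and 333, of which the first 2 were introduced factors, while Nanog, Zfp42, Dppa3, Dppa4 and Esrrb were at 0.519 FPKM or less.

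Chd8 was at 14.2 and 10.0 FPKM in MEFs, then 15.5 and 11.3 in pre-iPSCs, then 15.0 and 15.1 in iPSCs. Its cell types lay within 0.31 of each other on the log2 scale (95% interval of iPSCs against MEFs -0.51 to 1.13, limma adjusted p = 0.55). Chd6 was at 3.45 and 2.39 FPKM in MEFs, then 6.12 and 4.91 in pre-iPSCs, then 4.52 and 6.31 in iPSCs. All its pre-iPSC and iPSC libraries were above both MEF libraries, and the differences from MEFs of 0.74 and 0.71 did not pass (limma adjusted p = 0.25 and 0.22). Chd9 was at 4.00 and 1.73 FPKM in MEFs, then 9.99 and 4.56 in pre-iPSCs, then 4.42 and 3.91 in iPSCs. It was highest in the pre-iPSC libraries, and its difference of pre-iPSCs from MEFs, 1.08 (95% interval 0.15 to 2.01), missed the threshold after adjustment over all genes (limma adjusted p = 0.11). In all, 4 of the 8 tested members had pre-iPSC libraries above both MEF libraries and 1 below both, beside 24.6% and 29.3% of tested genes, and the counts were again 4 and 1 over the whole course, beside 26.7% and 36.2%. In the second step 1 member, Chd7, had both iPSC libraries above both pre-iPSC libraries and 2, Chd3 and Chd9, had them below, beside 20.9% and 31.1%.

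**Figure D3:**
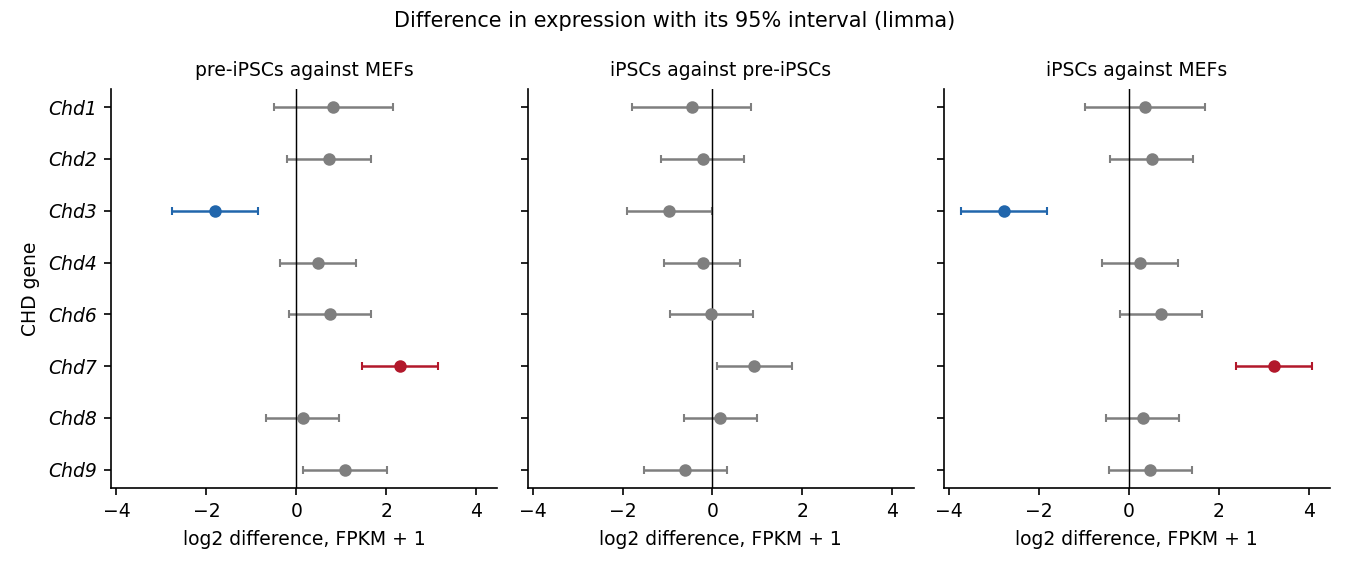
Difference in log2(FPKM + 1) of the 8 tested CHD genes in each of the 3 comparisons, with its 95% interval from limma, in red where called higher, in blue where called lower and in grey otherwise. Chd3 at -1.81 and -2.76 and Chd7 at 2.30 and 3.23 stand clear of 0 against MEFs, and no gene is called between pre-iPSCs and iPSCs.

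Of the 9 partners of Chd7 and Chd8, limma called 1 higher in the first step, 1 in the second and 3 over the whole course, beside 7.39%, 3.91% and 10.3% of all tested genes, and 0 lower. Sox2, a partner of Chd7 in neural stem cells, was at 0.124 and 0.128 FPKM in MEFs, then 272.5 and 171.2 in pre-iPSCs, then 65.7 and 115.7 in iPSCs, and reads of the endogenous gene and of the introduced copy cannot be told apart in the tables. Ash2l and Wdr5, subunits of the methyltransferases that lay down H3K4me3, rose by 2.21 and 1.65 on the log2 scale in iPSCs against MEFs (limma adjusted p = 0.006 and 0.016). Ash2l was at 26.1 and 19.1 FPKM in MEFs, then 27.6 and 20.3 in pre-iPSCs, then 162 and 70.6 in iPSCs, with 0.08 for the first step and 2.13 for the second (limma adjusted p = 0.92 and 0.015). The median difference of the 9 in iPSCs against MEFs was 0.74, beside -0.14 over all tested genes.

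By the rule for likeness, the root mean square difference of 6 values of log2(FPKM + 1) after removing each gene's mean in a table, the genes most like Chd3 were Rb1cc1, at 0.101, Ptprm, at 0.115, and Itprip, at 0.121. The closest other member was Chd1, at 1.39. The genes most like Chd7 were Rbm38, at 0.162, Hic2, at 0.184, and Bex2, at 0.186, and the closest other member was again Chd1, at 1.26. These are descriptions over 6 libraries of 3 cell types, in which many genes share a course.

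H3K4me3, the mark of active and poised promoters, was at 0.39 to 1.73 RPKM at the start sites of the members other than Chd8 in the 6 libraries. Chd8 had less at its table start, with 0.215 to 0.403 RPKM and the 11.3th to 21.5th percentile of all start sites. A promoter was counted as carrying a mark above 1 RPKM, the level the methods use for a window of 500 bp on each side. By it 6 and 5 of the 9 members carried H3K4me3 in the MEF libraries, 2 and 2 in pre-iPSCs, then 3 and 2 in iPSCs, beside 56.4% and 47.3%, 40.5% and 35.9%, and 41.1% and 34.4% of all start sites. These counts take Chd8 at its table start and so as unmarked. At its RefSeq start, given below, it exceeded 1 RPKM in both MEF libraries (2.40 and 1.43), pre-iPSC replicate 1 (1.26) and iPSC replicate 1 (1.37). No member exceeded 1 RPKM of H3K27me3 or H3K9me3 within 1000 bp of the table's start in any library.

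**Figure D4:**
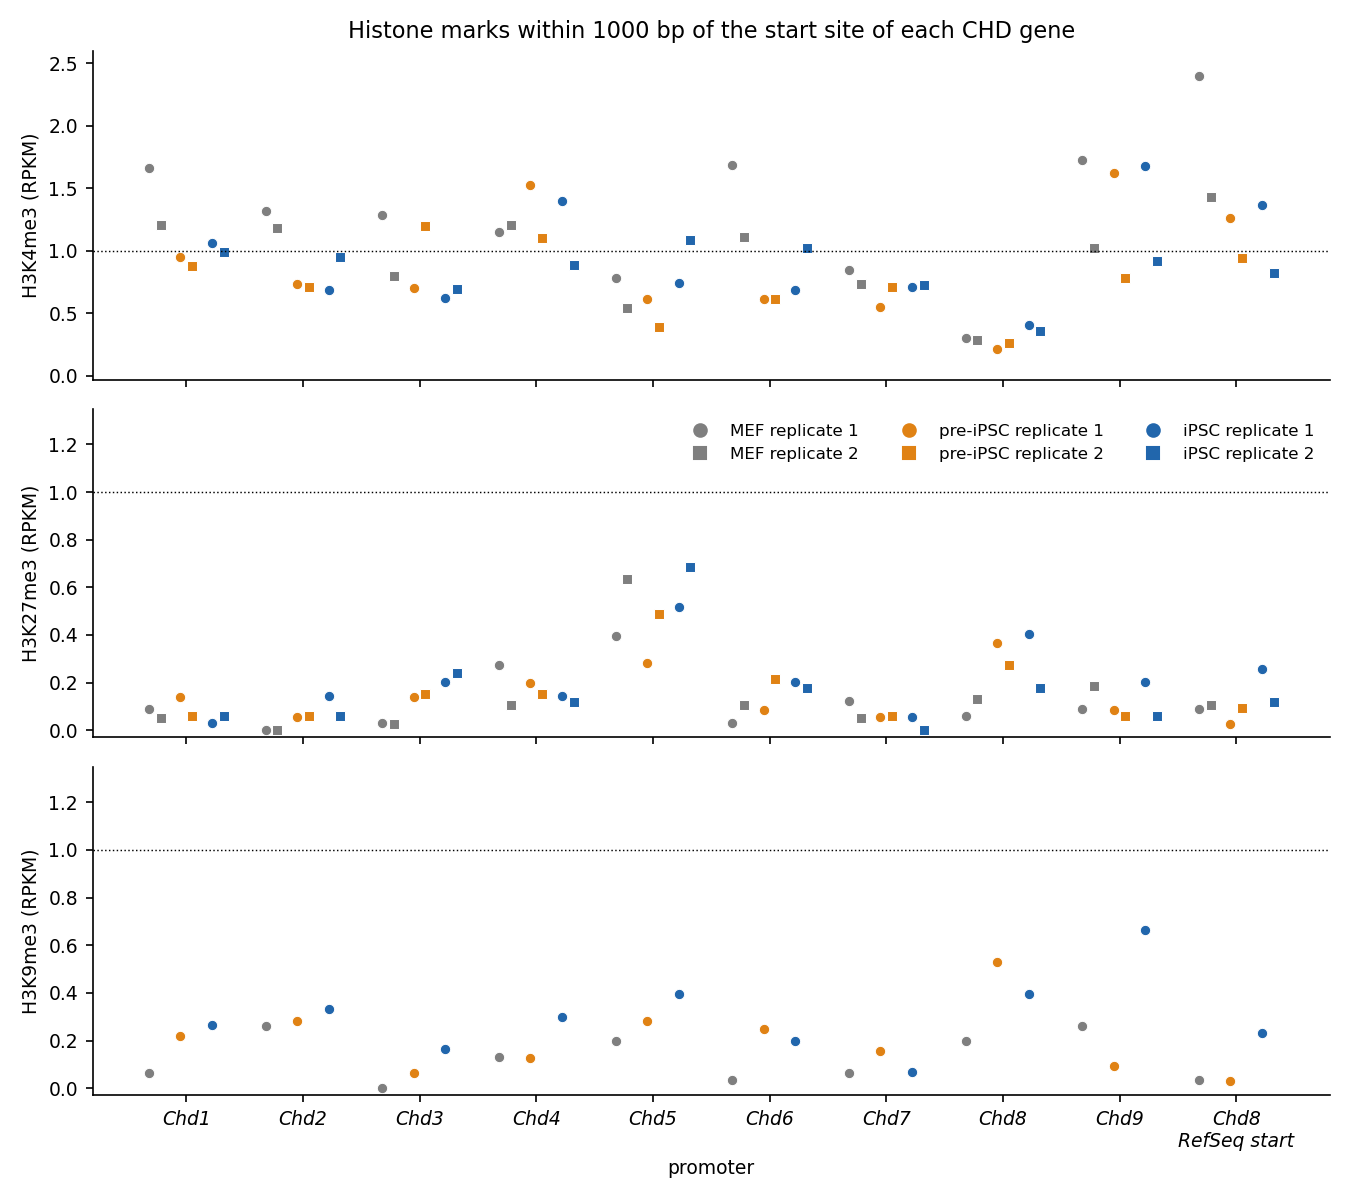
H3K4me3, H3K27me3 and H3K9me3 in RPKM within 1000 bp of the start site of each CHD gene, with a last column for the RefSeq start of Chd8, 1 point a library (circles replicate 1, squares replicate 2, 1 library a cell type for H3K9me3) and a dotted line at 1 RPKM. H3K4me3 of Chd8 is below 0.41 RPKM at the table's start and 0.822 to 2.40 at the RefSeq start, and Chd5 has the highest H3K27me3 in every library but pre-iPSC replicate 1, where Chd8 is at 0.366 RPKM and Chd5 at 0.281.

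No member was called for H3K4me3 in any comparison by edgeR (quasi-likelihood test, adjusted p below 0.05), beside 3.92% of promoters in the first step, 0.0283% in the second and 13.9% over the whole course. At an unadjusted p under 0.05 there were 2, 1 and 1 of the 9, beside 19.6%, 8.95% and 29.9% of promoters, and DESeq2 called 0 members in each. The shares called rested on single libraries, since without MEF replicate 1 edgeR called 98 promoters in the first step and 603 over the whole course, in place of 691 and 2450, but without each library in turn it called 0 members. On the RPKM scale, which keeps total signal, 5 of 9 members were below both MEF libraries in both pre-iPSC libraries and 5 of 9 in both iPSC libraries, beside 48.8% and 46.6% of promoters. The scaling sets the direction here, since with library totals in place of TMM factors the median of all promoters moved from -0.01 to -0.39 in the first step and from -0.03 to -0.37 over the whole course, and the called promoters from 557 higher and 134 lower to 237 and 1118, and from 1750 and 700 to 860 and 2387.

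Chd3 and Chd7, whose expression changed, showed no called change of H3K4me3. Chd3 held 38 and 25 reads in MEFs, then 23 and 37 in pre-iPSCs, then 20 and 21 in iPSCs, or 1.29 and 0.796, 0.705 and 1.2, and 0.621 and 0.691 RPKM. The difference of iPSCs from MEFs was -0.30 (95% interval -0.97 to 0.36, edgeR adjusted p = 0.56). From 1 to 3 kb downstream of its start, a stretch that was not tested, Chd3 held a further 46 and 48 reads in MEFs, then 43 and 45 in pre-iPSCs, then 35 and 41 in iPSCs. Chd7 held 36 and 17, then 18 and 24, then 25 and 18 there. The 7 remaining members held 12 to 80 reads a library there. Of these, Chd1 held 55 and 49 in MEFs and 31 to 37 in the other cell types, Chd2 49 and 55 and then 23 to 30, and Chd4 80 and 65 and then 41 to 52. In none of the rest were both MEF libraries the highest. The stretch lay outside the window set for the tests, and no share of all start sites was computed for it. Within 1000 bp of its start Chd7 held 25 and 23 reads in MEFs, where it was hardly expressed, 18 and 22 in pre-iPSCs, then 23 and 22 in iPSCs. Its difference of iPSCs from MEFs was 0.21 (95% interval -0.47 to 0.89, edgeR adjusted p = 0.71), and -0.13 with library totals in place of TMM (edgeR adjusted p = 0.8). At the depth of 18 to 38 reads a promoter, changes within these intervals were not detectable.

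Chd6 and Chd5 came nearest to a call. Chd6 held 50 and 35 reads of H3K4me3 in MEFs, then 20 and 19 in pre-iPSCs, then 22 and 31 in iPSCs, with every MEF library above every other, and its difference of pre-iPSCs from MEFs was -0.79 (95% interval -1.41 to -0.17, edgeR adjusted p = 0.14). With library totals in place of TMM it was -1.17 and called (edgeR adjusted p = 0.025), but within 500 bp of the start, the window of the methods, it was -0.29 (edgeR adjusted p = 0.85). Chd5 held 23 and 17 reads in MEFs, then 20 and 12 in pre-iPSCs, then 24 and 33 in iPSCs, and its difference of iPSCs from MEFs was 0.82 (0.13 to 1.51, edgeR adjusted p = 0.097). It was 0.47 without iPSC replicate 2 and with library totals (edgeR adjusted p = 0.55 and 0.31), and 1.3 within 500 bp of the start (edgeR adjusted p = 0.12). Chd4 was at 1.15 and 1.21 RPKM in MEFs, then 1.53 and 1.10 in pre-iPSCs, then 1.40 and 0.888 in iPSCs. Chd4 carried its mark to the downstream side, with 67.6% to 82.2% of the reads of the window downstream of the start in each library. Chd2, Chd3 and Chd9 also leaned downstream in each library, at 58.3% to 74.4%, 55.0% to 76.2% and 53.6% to 75.5%. The remaining members did not do so in every library, and no share of all start sites was computed.

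**Figure D5:**
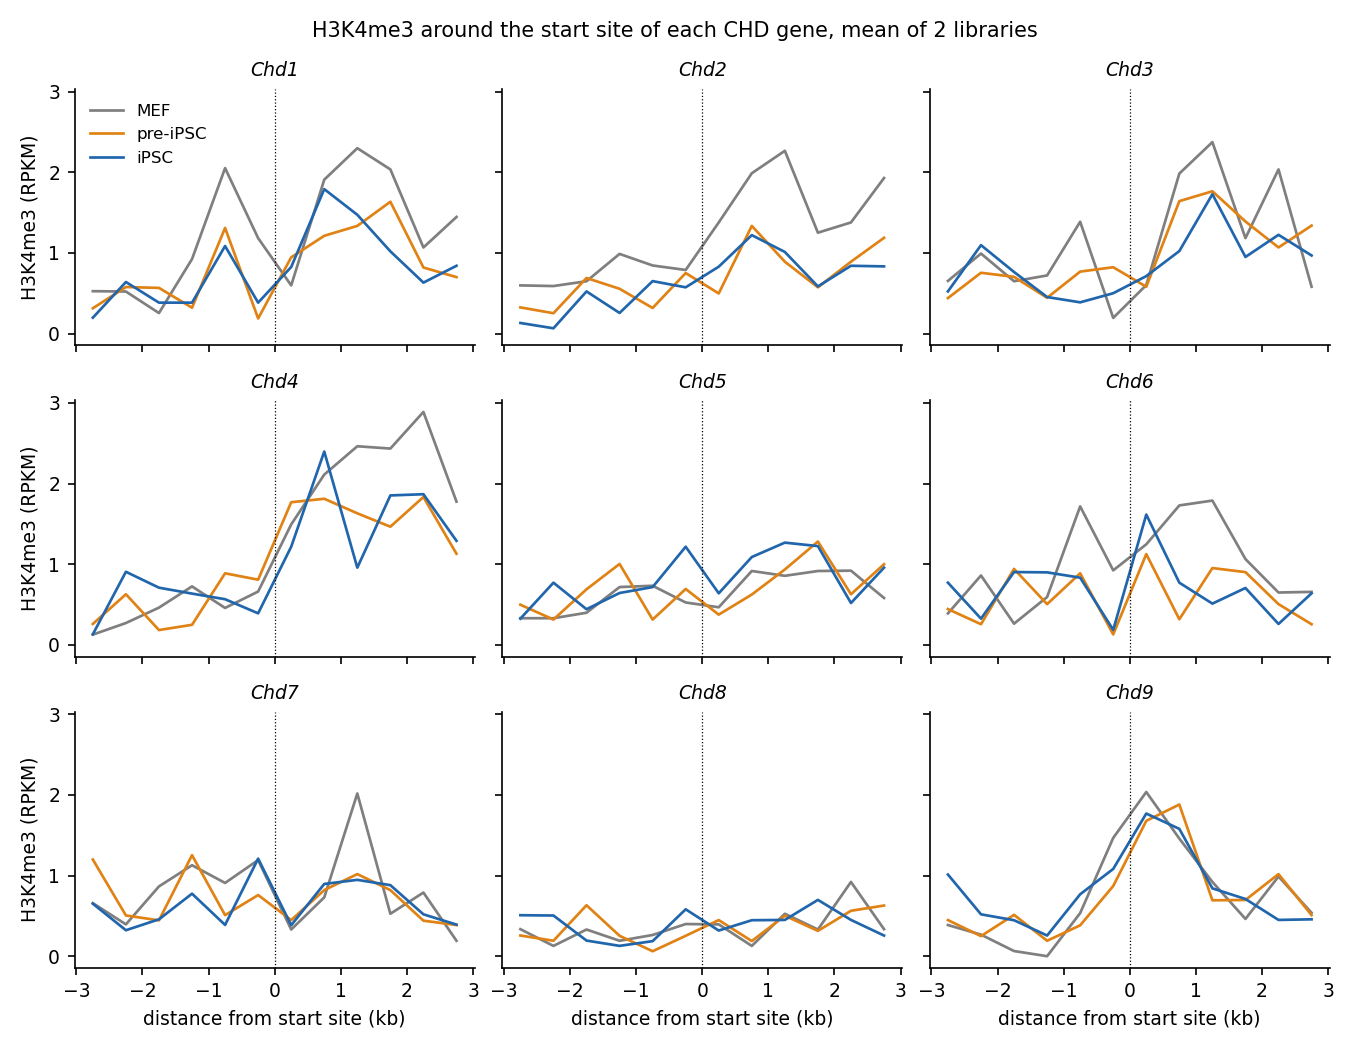
H3K4me3 in RPKM in bins of 500 bp from 3 kb upstream to 3 kb downstream of the table's start site of each CHD gene, as the mean of 2 libraries a cell type. Chd4 carries the mark on the downstream side, Chd9 close around the start, and Chd8 shows no peak.

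For Chd8 the table's start, on chromosome 14 at 52857247, was not where the mark lay. The promoter sequence that RefSeq gives for Chd8 on GRCm38 matched mm9 exactly at 1 place, with its start at 52877435, 20.2 kb upstream of the table's start and 21386 bp from the start of the nearest other gene, Tox4. Within 1000 bp of that start lay 71 and 45 H3K4me3 reads in MEFs, then 41 and 29 in pre-iPSCs, then 44 and 25 in iPSCs, against 9 and 9, 7 and 8, and 13 and 11 at the table's start. The upstream sequences printed above differ in the same way, with 16 CpG at the RefSeq start and 0 near the table's. Levels at the RefSeq start were 2.40 and 1.43 RPKM in MEFs, then 1.26 and 0.942 in pre-iPSCs, then 1.37 and 0.822 in iPSCs, and the cell types did not differ past the threshold when this start was added to the fit (difference of iPSCs from MEFs -0.44, 95% interval -0.95 to 0.07, edgeR adjusted p = 0.24). The start was added after the data were seen, and the values of Chd8 at the table's start do not describe this promoter.

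H3K27me3, the mark of Polycomb repression, was at most 0.686 RPKM within 1000 bp of any member, and 0.938% to 2.61% of all start sites exceeded 1 RPKM. Of the 9 members 2, Chd5 and Chd8, had reads enough to pass the count filter, and edgeR called 0 of them in each comparison, beside 8.27%, 0.805% and 11.4% of tested promoters in the first step, the second and the whole course. At an unadjusted p under 0.05 there were 1, 0 and 1 of 2, beside 21.4%, 11.6% and 26.0% of tested promoters, and DESeq2 called 0 of the members and 45, 0 and 18 promoters. Chd5, the member with least RNA, had the most in every library but pre-iPSC replicate 1, where the table's start of Chd8 had more. It had 13 and 24 reads in MEFs, then 10 and 16 in pre-iPSCs, then 18 and 23 in iPSCs, between the 58.0th and 91.4th percentile of all start sites. Its difference of iPSCs from MEFs was 0.14 (95% interval -0.58 to 0.85, edgeR adjusted p = 0.85), and -0.01 with no filter on low counts (edgeR adjusted p = 1.0). The table's start of Chd8 had 2 and 5 reads in MEFs, then 13 and 9 in pre-iPSCs, then 14 and 6 in iPSCs, with a difference of pre-iPSCs from MEFs of 1.65 (edgeR adjusted p = 0.083). At the RefSeq start of Chd8 there were 3 and 4 reads in MEFs, then 1 and 3 in pre-iPSCs, then 9 and 4 in iPSCs. Chd3 had 1 and 1 reads in MEFs, then 5 and 5 in pre-iPSCs, then 7 and 8 in iPSCs, and did not pass the filter. With no filter its difference of iPSCs from MEFs was 2.61 (95% interval 0.92 to 4.30) and called (edgeR adjusted p = 0.046), at 0.202 and 0.239 RPKM in iPSCs, where the median of all start sites was 0.259 and 0.239. Further into the gene, from 1 to 3 kb downstream of the start, Chd3 had 3 and 3 reads of H3K27me3 in MEFs, then 8 and 4 in pre-iPSCs, then 36 and 10 in iPSCs, or 0.0909 and 0.0795, 0.225 and 0.122, and 1.04 and 0.299 RPKM, a stretch that was not tested. Both iPSC libraries were above the other 4 there, and they differed from each other by more than the other cell types did. Chd7 had 0 to 4 reads in every library within 1000 bp of its start and, from 1 to 3 kb downstream, 19 and 24 in MEFs, then 9 and 11 in pre-iPSCs, then 15 and 12 in iPSCs, a stretch where both MEF libraries were highest. Chd5 had the most there in MEFs, with 40 and 42 reads, then 23 and 41 in pre-iPSCs, then 25 and 26 in iPSCs, or 1.21 and 1.11, 0.647 and 1.25, and 0.72 and 0.776 RPKM. Its iPSC libraries were below both MEF libraries in this untested stretch, while within 1000 bp of the start the cell types overlapped. The 6 remaining members had 1 to 13 reads a library there. The stretch lay outside the window set for the tests, and the share of all start sites whose cell types separate there was not computed.

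H3K9me3, the heterochromatin mark, had 1 library a cell type and no test. Counts at the members ran from 0 at Chd3 in MEFs, where the exact Poisson interval allows up to 0.121 RPKM, to 20 at Chd9 in iPSCs, 0.662 RPKM (95% interval 0.404 to 1.02). Chd9 was at 0.262 RPKM in MEFs (0.113 to 0.517) and 0.0936 in pre-iPSCs (0.0193 to 0.273). Chd8 at the table's start had 0.197 RPKM in MEFs (0.0722 to 0.428), 0.53 in pre-iPSCs (0.309 to 0.849) and 0.397 in iPSCs (0.205 to 0.694), against 0.0328, 0.0312 and 0.232 RPKM, from 1, 1 and 7 reads, at its RefSeq start. The other members lay between 0 and 0.397 RPKM, and these intervals cover counting error of these libraries only.

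For H3, which tracks nucleosome occupancy, edgeR called 0 of 9 members in each comparison, beside 0.0% of promoters each time, DESeq2 also called 0, and 0, 1 and 0 members had an unadjusted p under 0.05, beside 1.93%, 0.536% and 1.52% of promoters. Chd7 held 15 and 10 nucleosome reads in MEFs, then 93 and 3 in pre-iPSCs, then 71 and 15 in iPSCs. It had the fewest of the members except in pre-iPSC replicate 1 and iPSC replicate 1, where Chd2 and Chd1 had fewer. These counts show how far the libraries of pre-iPSC replicate 1 and iPSC replicate 1 stood from their partners. Chd2 was at 0.185 and 0.182 RPKM in pre-iPSCs, then 0.188 and 0.189 in iPSCs, within 1000 bp of its start, but at 0.354 and 0.0331, then 0.192 and 0.0649, within 500 bp. Chd3 was, within 1000 bp, at 0.527 and 0.0662 and at 0.492 and 0.13. Without pre-iPSC replicate 1, and without iPSC replicate 1, edgeR still called 0 members for H3. Without pre-iPSC replicate 2 it called 4946 promoters in the first step and 2087 in the second, and 0 members.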

How the data were processed

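RNA was analysed in 6 libraries and chromatin in 21. Chromatin reads were mapped to mm9 by the authors (Bowtie 1.0.1, unique matches with 2 mismatches or fewer), moved 73 bp towards the dyad and joined into nucleosomes by GeneTrack, and each deposited file lists the read count of every nucleosome and a fuzziness value that was not tested. RNA reads went through TopHat2 2.0.4 and Cufflinks 2.0.2, per the submitters' processing notes, and the deposited tables hold FPKM without counts, so no counting error could be given for expression.

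The CHD members, partner lists and marker lists were chosen with earlier results of these data known. Reads of calls with a dyad within 1000 bp of the start site were counted and divided by window length and the unique reads of each library to give RPKM, and tested as counts with edgeR 4.0.16 (filterByExpr, TMM, quasi-likelihood; Benjamini-Hochberg over all promoters). Intervals of edgeR differences were taken from the F statistic. Log2(FPKM + 1) was tested with limma 3.58.1 (trend; table as a term; mean of at least 0.5 FPKM; all 3 cell types in 1 fit; adjusted p below 0.05 and log2 difference of at least 1). DESeq2 1.42.0, other scalings, filters, pseudocounts, windows and leaving out each library were the alternatives. Leaving out 1 library leaves its cell type with 1, which was assumed to have the spread of the remaining groups. Named were all members, up to 3 called genes of each list with the largest difference, and the 3 genes most like each called member. Tests were checked on simulated data, where 138 of 200 genes changed 4-fold were recovered among 12401 for expression in pre-iPSCs against MEFs, and 193 of 200 among 17700 promoters for H3K4me3. False calls numbered 11 and 8. The H3K4me3 counts were drawn with an assumed spread, not one estimated from the data, so this does not give the power of the test in these libraries. Promoter sequences came from the NCBIM37 (mm9) genome with GENCODE starts, and RefSeq promoters of GRCm38 were matched for 5 of the 9 members. The promoter sequence of 1 member is not reported here. R 4.3.3 and Python 3.11.15 were used.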

Additional observations from a re-analysis of the deposited data

How the results depend on the processing

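Chd7 stayed called over the whole course from MEFs to iPSCs under all alternatives run, with differences of 3.14 to 4.40. With no filter on low values the members called went from 2 to 0 in the first step (MEFs to pre-iPSCs) and from 2 to 1 over the whole course, as Chd3 lost its call in both (limma adjusted p = 0.17 and 0.071) and Chd7 in the first step (limma adjusted p = 0.09), and the genes called over the whole table went from 2032 to 0 and from 3206 to 549. Without MEF replicate 1 Chd1 passed the threshold too, at 1.87 in the first step and 1.41 over the whole course. Chd3 lost its call in the first step without MEF replicate 1, pre-iPSC replicate 1 or pre-iPSC replicate 2. Leaving out iPSC replicate 1 or 2 cut the genes called over the whole course to 1117 and 1265, and those of the second step from 1069 to 179 and 87. Without MEF replicate 1 or 2 the second step rose to 2203 and 2281, and without pre-iPSC replicate 1 or 2 the first step fell from 2032 to 1384 and 1072, where the latter split into 607 higher and 465 lower in place of 916 and 1116. For H3K4me3 leaving out a library gave 98 (MEF replicate 1) to 898 promoters in the first step, with 217 and 233 without pre-iPSC replicate 1 or 2, 0 to 73 (iPSC replicate 2) in the second, and 603 (MEF replicate 1) to 2329 over the whole course, with 969 and 1609 without iPSC replicate 1 or 2. For H3K27me3 it gave 396 (pre-iPSC replicate 2) to 864, 9 (iPSC replicate 1) to 128, and 465 (iPSC replicate 1) to 1180, in place of 842, 82 and 1163. Library totals in place of TMM gave 1 member called for H3K4me3 in the first step (Chd6) in place of 0, and no filter on low counts gave 1 for H3K27me3 over the whole course (Chd3) in place of 0. DESeq2 called 31, 0 and 121 promoters for H3K4me3 in the first step, the second and the whole course, where edgeR called 691, 5 and 2450. With Chd8 at its table start, the members above 1 RPKM of H3K4me3 in every library of a cell type went from 5 to 3 in MEFs within 500 bp of the start, and, scaled to the reads in calls, from 1 to 2 in pre-iPSCs and from 0 to 3 in iPSCs. The member differences compared across settings here are a subset of all members and comparisons. Among them, those not called with the main settings changed sign in 8 cases. Without each library in turn Chd1 ran from -0.22 (without MEF replicate 2) to 1.87 in the first step and from -0.69 (without MEF replicate 2) to 1.41 over the whole course, with -0.32 without iPSC replicate 2. Over the whole course Chd4 ran from -0.02 (without iPSC replicate 2) to 0.53, and H3K27me3 at Chd5 from -0.16 (without MEF replicate 1) to 0.42, with -0.14 without iPSC replicate 2 and -0.01 with no filter. H3K4me3 at Chd7 was -0.13 with library totals. With no change of sign, single libraries moved the whole-course difference of Chd6 from 0.34 (without iPSC replicate 2) to 1.08 (without iPSC replicate 1), that of Chd8 from 0.08 (without iPSC replicate 2) to 0.54 (without iPSC replicate 1), and H3K4me3 at Chd3 from -0.47 (without MEF replicate 2) to -0.10 (without MEF replicate 1), all uncalled. The cause of these changes was not tested. Median centring moved the median of all tested genes over the whole course from -0.14 to 0.09 and the calls from 1279 higher and 1927 lower to 1674 and 1475, and in the second step the median from -0.09 to 0.12 and the calls from 485 and 584 to 604 and 442. Leaving out the table as a replicate block changed no call of a member in expression (2, 0 and 2 members called in the first step, the second and the whole course), and adding a replicate block for the marks left 0 called. Depth limits the marks, since the members held 7 to 54 H3K4me3 and 0 to 24 H3K27me3 reads a promoter.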

Other observations

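Beside the CHD genes, the other ATPases of the Snf2 type were measured, 20 of 22 being in the tables. Of these, limma called 2 higher from MEFs to pre-iPSCs, 1 higher and 1 lower in the step to iPSCs, and 4 higher (Hells, Chd1l, Rad54l and Zranb3, the last 3 named after their values were seen) and 1 lower over the whole course. Of all tested genes 7.39%, 3.91% and 10.3% were called higher and 9.0%, 4.71% and 15.5% lower in these comparisons. The median difference of the ATPases was 0.45, 0.11 and 0.47 in that order, beside -0.04, -0.09 and -0.14 over all tested genes. Smarca2, the BRM motor of the SWI/SNF complexes, went up and then down, from 6.09 and 14.8 FPKM in MEFs to 30.4 and 69.2 in pre-iPSCs, then 1.10 and 2.23 in iPSCs (differences 2.15 and -4.17 for the steps, limma adjusted p = 0.0086 and 0.0016). It was highest in both pre-iPSC libraries and lowest in both iPSC libraries, a course that none of the 8 tested CHD genes took past the threshold. Hells, a motor needed for DNA methylation, was at 17.9 and 8.04 FPKM in MEFs, then 15.4 and 8.68 in pre-iPSCs, then 53.6 and 62.1 in iPSCs (2.22 for the second step, limma adjusted p = 0.019). Hltf, which acts at stalled replication forks, was at 4.19 and 1.83 FPKM in MEFs, then 14.9 and 14.8 in pre-iPSCs, then 6.13 and 7.17 in iPSCs (2.05 for the first step, limma adjusted p = 0.016).

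A second RefSeq start of Chd9, 103.4 kb downstream of the table's start, held 9 to 18 H3K4me3 reads in the 6 libraries, against 24 to 54 at the table's start.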
